A study of Mus musculus with 4 samples.

Results

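Type IA and type IB are 2 of the 3 subtypes that the authors gave to type I spiral ganglion neurons, and the comparison below sets one directly against the other. Cells were taken by the subtype label in the deposited cell annotation, which gave 2384 type IA and 1625 type IB cells, 4009 of the 6713 annotated neurons. The cells came from 4 wild-type male mice of the inbred CBA/CaJ strain, 9 weeks old, with no treatment named, and both subtypes share strain, sex and age. Tissue of the modiolus, taken from 8 cochlear capsules, was pooled within a mouse and digested by mouse, so both subtypes of a mouse passed through the same dissociation and the same library. Limbus, sulcus and parts of the hearing epithelium came along in that dissection. The 2104 type IC cells were left out of the comparison and appear only as side values. Unique molecular identifiers (UMIs, counts of captured transcript molecules) were summed per mouse and subtype, giving 4 sums a side that are paired by mouse. The method behind the subtype labels was not given in the sources used. The labels describe the very cells whose UMIs were compared, so a gene that separates the subtypes may have helped to define them, and such genes are not independent findings.

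Type I neurons carry the signal of the inner hair cells to the brainstem, and several of them contact each inner hair cell. Fibres that leave the same place along the cochlea differ in how often they fire without sound and in the sound level that excites them. In the adult mouse these neurons fall into molecular subtypes, of which type IA is known for abundant calretinin (Calb2), type IB for calbindin (Calb1) and type IC for Lypd1 and the transcription factor Pou4f1. Calretinin-rich fibres are known to contact mostly the pillar side of the hair cell, and the other subtypes mostly the modiolar side. None of these contacts was measured here.

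Levels are given as CPM, the UMIs of a gene scaled to a total of 1000000 UMIs for each sum, in the order mouse 1, 2, 3, 4. Differences are log2 of type IA over type IB, so that a positive value is higher in IA, and are printed with their standard error. A gene counts as called when its Benjamini-Hochberg adjusted p in edgeR's paired quasi-likelihood test is under 0.05. CPM values of different genes are not compared with each other.

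The labels matched marker lists chosen with these subtypes known. All 6 type IA markers were higher in IA and all 6 type IB markers were higher in IB. Summed type IA markers reached 9529 to 11269 CPM in the IA sums and 2269 to 2842 in the IB sums. Summed type IB markers reached 14.2 to 17.9 CPM in IA and 172.9 to 199.2 in IB. Prph, which marks type II neurons, was at 1.03 ± 0.627 CPM in IA and 1.17 ± 0.885 in IB, and had a UMI in 60.9% of type II cells against 0.607% of IA and 0.519% of IB cells at equal depth. The 7 type II markers summed to 52.5 to 58.1 CPM in IA and 37.1 to 45.2 in IB. That sum was higher in IA in 4 of 4 mice with no overlap. Most of it was Gata3, the 1 of 3 tested called higher in IA, with 1442 UMIs in IA and 779 in IB. Gata3 is also in the list of transcription factors of sensory and inner ear neurons. The general type I markers summed to 7632 to 8134 CPM in IA and 7684 to 8401 in IB, lower in IA in 4 of 4 mice. Of these 7 markers, 4 were called higher in IA and 2 higher in IB.

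Type IA made up 35.3% ± 1.21 and type IB 24.4% ± 0.985 of a mouse's annotated cells (SD, n = 4). The IA sums held 4802909 to 10156321 UMIs and the IB sums 3830864 to 6471532. The median cell held fewer UMIs in IA than in IB in 4 of 4 mice, 13166 ± 3409 against 14541 ± 3017. The share of mitochondrially encoded UMIs was higher in IA in 4 of 4 mice, 10.3% ± 0.758 against 8.95% ± 0.519. An exact sign-flip permutation over 4 mice has 16 arrangements and gives p = 0.125 (two-sided) for each of these 3 differences, the smallest it allows. Of the cell barcodes, 9 occurred in more than 1 library among IA and IB cells. Transcripts of other cells were present in both subtypes. The 12 markers of satellite glia and Schwann cells summed to 4191 to 4395 CPM in IA and 4539 to 4811 in IB, with no overlap, and 3 of the 12, Mbp and Pmp22 among them, were called higher in IB. The call of Mbp was lost without mouse 1 or mouse 3. Haemoglobin transcripts ranged from 331.4 to 1724 CPM over the 8 sums, with 2 of 5 called higher in IA (Hbb-bs and Hba-a1). The Hbb-bs call was lost without mouse 1, 2 or 3, and that of Hba-a1 without the mouse term or with equal numbers of cells; its log2 difference of 0.30 was 0.18 without mouse 1. The Pmp22 call was lost without the mouse term. The 8 markers of supporting, limbus and sulcus cells were lower in IA in 4 of 4 mice, at 98.2 to 130.7 against 115.4 to 147.3 CPM, with 1 of 6 tested called higher in IB. Of 3 endothelial and pericyte markers tested, 1 was called higher in IA. Their part in the differences below was not tested.

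The genes with the widest gaps lie on many chromosomes (mouse build GRCm38, GENCODE vM21). Among those higher in IA, Calb2 spans chromosome 8, 110137502 to 110168210, B3gat1 chromosome 9, 26733728 to 26763101 and Tmem132c chromosome 5, 127241808 to 127565793. Among those higher in IB, Calb1 spans chromosome 4, 15881264 to 15908064, Ttn chromosome 2, 76703980 to 76982547, Ntng1 chromosome 3, 109780040 to 110144011, Slc17a6 chromosome 7, 51622006 to 51671119, Kcnd2 chromosome 6, 21215503 to 21729805 and Runx1 chromosome 16, 92601466 to 92826149. All are protein-coding, and the counts come from tags near the 3′ ends of their transcripts, so they do not show which start site was used.

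Promoters of B3gat1, high in IA, and of Ntng1 and Runx1, high in IB, are shown because these genes mark the sides of the comparison and because a runt-family factor and a nuclear receptor are themselves among the genes called. Each run covers a short stretch mostly upstream of the gene's RefSeq start, written 5′ to 3′ on the gene's strand, from RefSeq on GRCm38.p6. Capitals mark matches on either strand to TGTGGT, the core bound by runt-family factors such as Runx1, or to AGGTCA, the half-site of nuclear receptors such as Rxrg. ATTAAT, a core of sites for Pou4f factors, was searched as well. The B3gat1 window is chr9:26751312-26751611 on the plus strand, the Ntng1 window chr3:110143423-110143722 on the minus strand and the Runx1 window chr16:92826025-92826324 on the minus strand. RefSeq and GENCODE starts differ for these genes: the B3gat1 and Ntng1 windows lie wholly inside the GENCODE spans given above, and the Runx1 window overlaps its span in part.
B3gat1: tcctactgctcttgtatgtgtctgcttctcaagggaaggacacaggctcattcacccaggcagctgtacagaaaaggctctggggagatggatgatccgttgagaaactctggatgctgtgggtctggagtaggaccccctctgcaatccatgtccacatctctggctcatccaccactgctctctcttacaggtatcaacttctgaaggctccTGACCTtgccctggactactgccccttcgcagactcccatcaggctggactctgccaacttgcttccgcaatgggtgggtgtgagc
Ntng1: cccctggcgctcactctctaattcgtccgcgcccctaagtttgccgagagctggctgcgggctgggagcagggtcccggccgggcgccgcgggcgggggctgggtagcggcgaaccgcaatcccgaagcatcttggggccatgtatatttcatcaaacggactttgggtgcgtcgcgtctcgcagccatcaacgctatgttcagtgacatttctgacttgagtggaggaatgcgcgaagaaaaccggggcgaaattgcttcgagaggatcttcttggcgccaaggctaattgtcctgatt
Runx1: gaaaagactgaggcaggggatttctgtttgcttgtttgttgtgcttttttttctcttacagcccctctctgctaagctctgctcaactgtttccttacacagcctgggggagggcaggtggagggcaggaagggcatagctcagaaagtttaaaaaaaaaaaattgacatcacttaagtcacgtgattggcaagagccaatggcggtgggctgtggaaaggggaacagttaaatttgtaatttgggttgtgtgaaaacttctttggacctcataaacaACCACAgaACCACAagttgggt

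The B3gat1 window held 1 nuclear receptor half-site, on the reverse strand, and the Runx1 window held 2 runt cores, both on the reverse strand. The Ntng1 window held none of the 3 motifs, and neither did those of Pou4f1, Rxrg and Slc17a6, which were read too and are not printed. A match is only a run of letters and does not show binding. RefSeq promoters were matched for 9615 of the 12757 genes tested, and 11.8% of them held the runt core, 11.7% the half-site and 2.05% the Pou4f core. Among promoters of genes called at least 2-fold higher in IA, 13 of 89 held the runt core, 13 of 89 the half-site and 2 of 89 the Pou4f core. Among those at least 2-fold higher in IB, 16 of 124 held the runt core, 12 of 124 the half-site and 5 of 124 the Pou4f core. These shares are descriptions of the letters in the windows.

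Of 12757 genes tested, 2822 (22.1%) were called, 1354 (10.6%) higher in IA and 1468 (11.5%) higher in IB. At least 2-fold differences were seen in 299 genes (2.34%), 134 higher in IA and 165 higher in IB, and at least 4-fold differences in 70, so most calls were of small size, with a median absolute log2 difference of 0.30. Abundant genes were called more often, 26.9% of those with a mean of 10 CPM or more against 11.6% of the rarer ones. The 4 IA and the 4 IB values did not overlap in 1911 genes (15.0%), and all 4 mice agreed in direction for 4656 genes (36.5%). DESeq2 on the same sums called 1187 genes, and the fit without the mouse term 1266. Both subtypes belong to one class of neuron, and the widest gaps sat in genes of low to middle abundance, with Calb2 as the abundant exception.

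**Figure D1:**
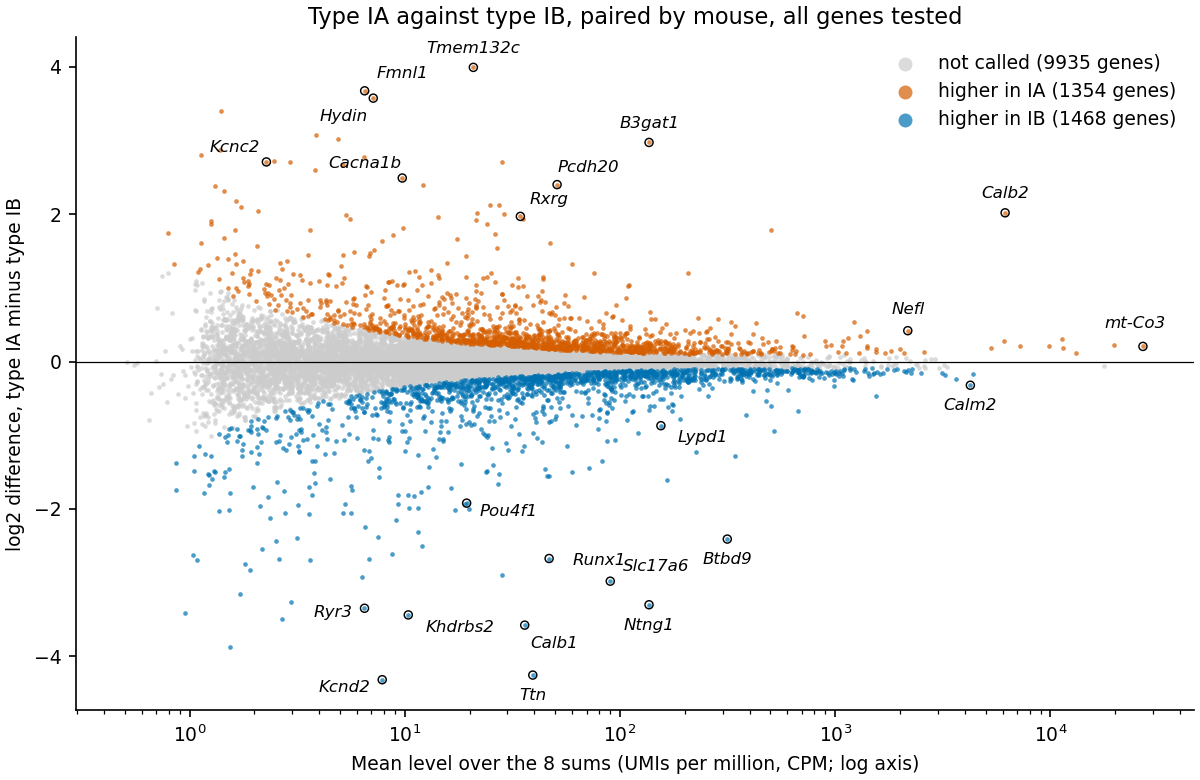
Log2 difference between type IA and type IB (vertical axis) against the mean level over the 8 sums in CPM (horizontal log axis) for the 12757 genes tested. Orange points are the 1354 genes called higher in IA, blue points the 1468 called higher in IB and grey points those not called. Among the 70 genes of at least 4-fold, Calb2 and Btbd9 lie farthest to the right.

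Calretinin set the subtypes apart most visibly among abundant transcripts. Calb2, the gene of this EF-hand calcium buffer, stood at 10315, 9262, 10826 and 9060 CPM in IA and at 2777, 2226, 2624 and 2206 in IB. Every IA value lay above every IB value, and the difference was 2.02 ± 0.04 (edgeR adjusted p = 4.7e-51), 4.05-fold. B3gat1, which makes a glucuronyl carbohydrate epitope on adhesion molecules, was at 234, 216, 259 and 261 CPM in IA and 29.1, 36.6, 27.5 and 28.7 in IB. Its groups were far apart, at 7.86-fold (log2 2.97 ± 0.06).

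The steepest IA gene was Tmem132c, a membrane protein of little known function, at 43.3, 37.2, 35.9 and 40.8 CPM in IA and 3.02, 2.94, 2.32 and 1.04 in IB (15.9-fold, adjusted p = 1.2e-35 in edgeR). All 4 IB values lay near the foot of the range. Next were Fmnl1, a formin that elongates actin filaments, at 12.1 ± 2.27 CPM in IA and 0.942 ± 0.662 in IB (log2 3.68 ± 0.23), and Hydin, known from the central pair of motile cilia, at 13.2 ± 2.37 and 1.08 ± 0.491 (log2 3.58 ± 0.21). Sh3bgr was at 49.0 ± 12.5 against 7.52 ± 1.10 CPM. Pcdh20, a protocadherin, reached 86.2, 77.3, 73.0 and 106 CPM in IA against 18.5, 14.2, 13.6 and 18.8 in IB, 5.29-fold. Mouse 4 was the highest of the IA values and the groups stayed apart.

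Several rare transcripts completed the IA side. Mapk4, an atypical MAP kinase, averaged 11.3 ± 2.32 CPM in IA and 1.71 ± 0.849 in IB. Adrb1, a beta-adrenergic receptor, averaged 5.16 ± 1.86 and 0.696 ± 0.310, and Plekhd1 4.28 ± 1.79 and 0.663 ± 0.132. Their log2 differences were 2.78, 2.71 and 2.72. The values of Shank2, a scaffold of the postsynaptic density, rest on 74 UMIs in IA and 7 in IB, and those of Megf11 on 61 and 6. Megf11 fell under the low-count filter without mouse 2. Myoz1, a Z-disc protein of muscle, rests on 78 and 5.

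On the IB side the widest gap was that of Kcnd2, a pore of A-type potassium channels, at 0.723, 0.689, 0.754 and 0.625 CPM in IA and 12.8, 13.1, 15.3 and 18.8 in IB (log2 -4.32 ± 0.21, edgeR adjusted p = 6.6e-27). Ttn, which encodes the giant muscle protein titin, was at 2.75, 4.33, 2.89 and 5.41 in IA and 72.9, 61.3, 78.6 and 86.4 in IB, 19.1-fold. Both genes were near 0 in IA and plainly present in all 4 IB sums. Calb1, the second EF-hand buffer that names a subtype, stood at 3.62, 5.91, 6.53 and 6.04 CPM in IA and 59.3, 72.5, 68.1 and 66.6 in IB, 11.9-fold.

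Ntng1, a membrane-anchored netrin-G that binds a postsynaptic partner, was at 24.7, 25.5, 24.5 and 23.1 CPM in IA and 259.8, 233, 232 and 268 in IB (9.86-fold, adjusted p = 4.7e-54 in edgeR). Its IA values spread over less than 3 CPM. Slc17a6, a vesicular glutamate transporter, stood at 18.4, 21.0, 20.2 and 19.6 against 156, 146, 170.4 and 169 CPM, 7.90-fold. Btbd9, a BTB-domain protein, was the most abundant gene with such a gap on this side, at 103, 103, 99.4 and 90.2 in IA and 549.6, 556, 497 and 525 in IB (5.32-fold). The groups of all 3 genes were apart in every mouse.

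Khdrbs2, an RNA-binding splicing factor, averaged 1.70 ± 0.303 CPM in IA and 19.1 ± 1.42 in IB. Ryr3, a calcium release channel of the endoplasmic reticulum, averaged 1.14 ± 0.215 and 11.8 ± 1.47. Dpp10, which joins A-type channels as an auxiliary subunit, averaged 0.575 ± 0.336 and 5.34 ± 0.544. These 3 had log2 differences of -3.44, -3.35 and -3.26. Mgat4c, a Golgi enzyme of N-glycan branching, and Tenm2, a teneurin that binds latrophilins across the synapse, differed by -2.93 and -2.84. Edn2, an endothelin, and Kcnj6, an inward rectifier subunit, rest on few molecules, 10 and 4 UMIs in IA and 68 and 36 in IB. Kcnj6 fell under the low-count filter without mouse 3 or mouse 4.

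**Figure D2:**
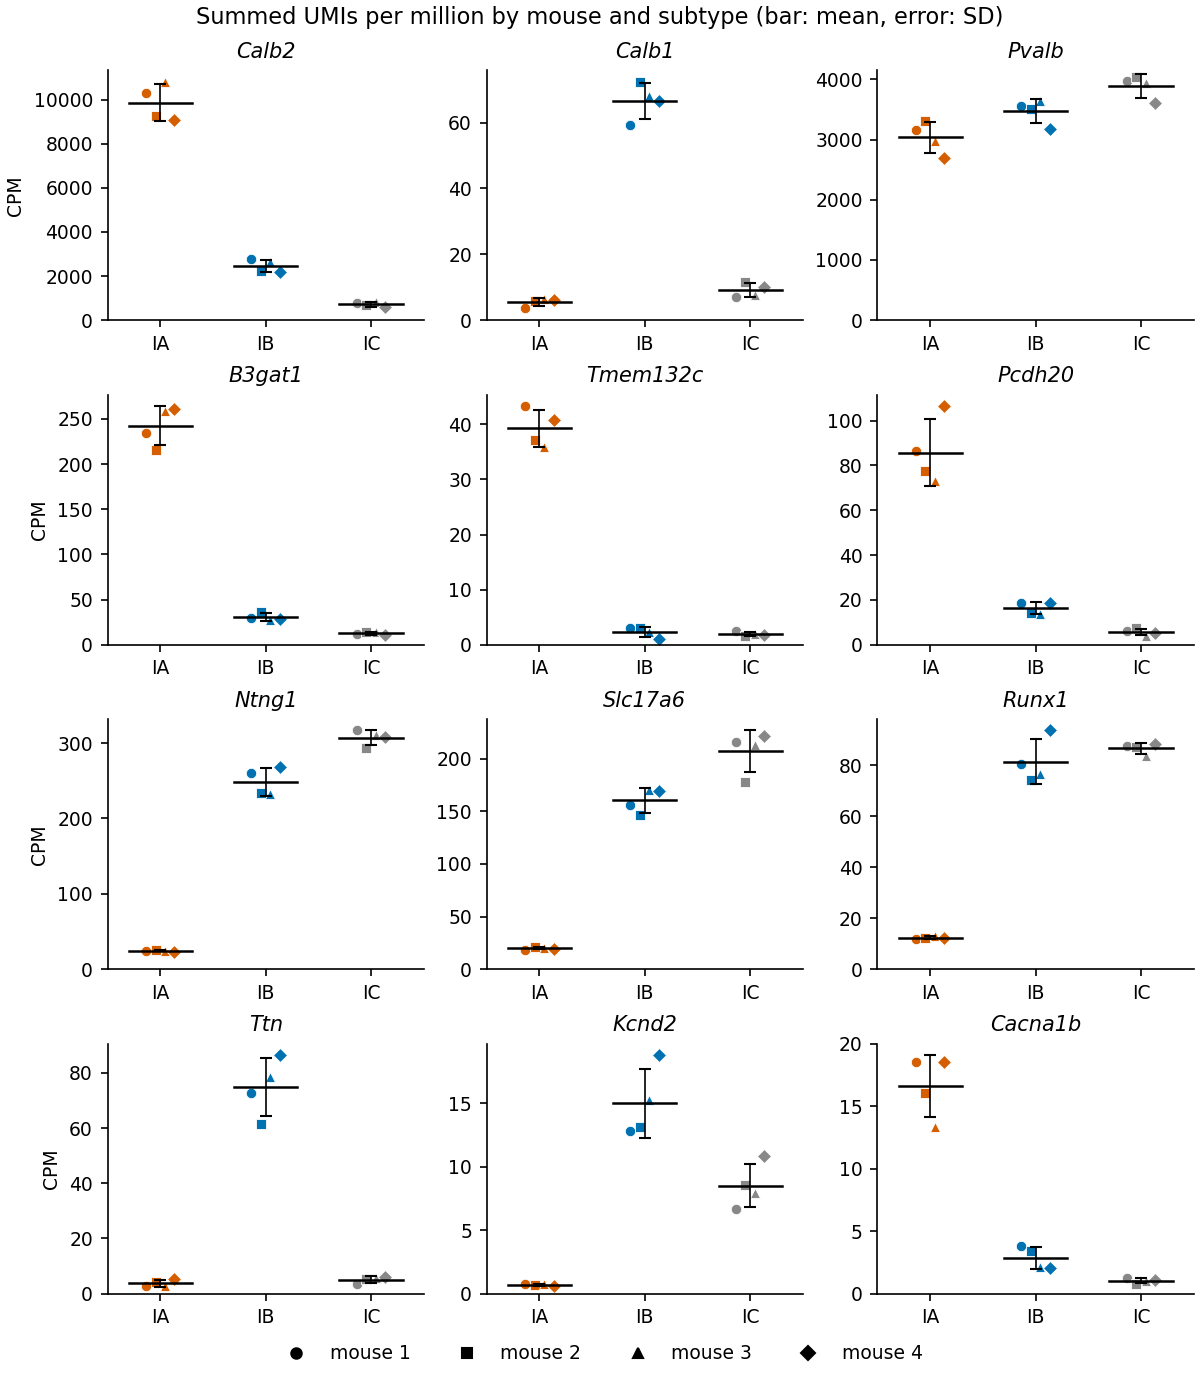
CPM of 12 genes (vertical axes from 0) in the type IA, IB and IC sums of each of 4 mice, with the mouse given by the symbol, the mean by the bar and the SD by the error bar. Calb2, B3gat1, Tmem132c, Pcdh20 and Cacna1b are high in IA, Calb1 and Ttn in IB alone among the 3 subtypes, and Ntng1, Slc17a6 and Runx1 in both IB and IC, while Pvalb differs little.

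Genes were then read by function, in lists whose called shares can be set against the 10.6% and 11.5% of all genes. Those shares are for the paired edgeR test. List counts with DESeq2 belong beside its 1187 calls of 12757 genes, and those without the mouse term beside 1266 of 12286. Over the 45 lists 440 genes were called, against 293 with DESeq2 and 225 without the mouse term. Some genes are in several lists, and each is counted here a single time. No share is given, because the number of genes tested over all lists together was not computed. The lists were chosen with earlier results of these data known, so called shares above the 22.1% of all genes are not independent findings. Among calcium buffers and EF-hand sensors, 4 of 27 tested members were called higher in IA and 15 higher in IB, with a median of -0.19. The IA members included Calb2, Hpcal1 and Kcnip4. Hpcal1, a visinin-like calcium sensor, averaged 26.4 ± 1.33 CPM in IA and 12.1 ± 1.57 in IB (log2 1.15 ± 0.10). The Kcnip4 call was lost without mouse 3, without the mouse term, with DESeq2 and with equal numbers of cells. It was also lost in thinned cells, in cells at or above the median depth of their mouse and with rebuilt labels. On the IB side stood Calb1, the sensors Ncald (log2 -1.32 ± 0.16) and Efhd2 (-1.09 ± 0.07), and the channel-binding sensor Kcnip2 (-1.19 ± 0.09). Pvalb, the gene of parvalbumin, was at 3158, 3311, 2973 and 2699 CPM in IA and 3554, 3509, 3648 and 3184 in IB. It was lower in IA in each mouse, yet mouse 2 of IA exceeded mouse 4 of IB, and the difference was only -0.19 ± 0.04. Calm2, a calmodulin gene, was higher in IB (log2 -0.32 ± 0.04). S100b, at 923 ± 54.8 and 963 ± 78.9 CPM, was not called (log2 -0.05 ± 0.03).

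Voltage-gated calcium channel genes were called in both directions, 5 higher in IA and 3 higher in IB of 15, or 5 in all with DESeq2. The widest gap was in Cacna1b, the pore of N-type channels, at 18.5, 16.0, 13.3 and 18.5 CPM in IA and 3.78, 3.40, 2.15 and 2.09 in IB (log2 2.49 ± 0.16). The auxiliary subunits Cacna2d2 (8.91 ± 1.57 against 2.25 ± 0.861 CPM) and Cacna2d1 (10.3 ± 1.12 against 5.64 ± 0.996) were also higher in IA, and the beta subunit Cacnb4 was higher in IB (log2 -0.31 ± 0.04). Cacna1a, the P/Q-type pore, was at 56.9 ± 6.52 and 60.9 ± 8.21 CPM and not called. Calcium handling genes split evenly, 4 against 4 of 19. Beside Ryr3, the sodium-calcium exchanger Slc8a3 was higher in IB (log2 -1.15 ± 0.24), while Mcu, the mitochondrial calcium uniporter, was higher in IA (0.73 ± 0.10). Copines, which bind membranes in response to calcium, also parted: Cpne9 and Cpne6 were higher in IB (log2 -1.45 ± 0.05 and -1.15 ± 0.06) and Cpne4 higher in IA (0.61 ± 0.05).

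Potassium channels held some of the steepest gaps. Of 8 A-type Kv4 complex genes, 3 were higher in IA and 4 in IB, with different members on each side. Kcnd2, Dpp10, Kcnip2 and Kcnip1 were higher in IB, and their relatives Kcnd1 (13.2 ± 3.02 against 7.47 ± 0.522 CPM) and Dpp6 (37.6 ± 3.79 against 23.7 ± 2.79) were higher in IA. Kcnip4 was called higher in IA too, but its call was lost in the settings given above. Among delayed rectifier and low-threshold genes of the Kv1 and Kv2 families, 1 of 10 was higher in IA and 6 were higher in IB. Kcna6 had the widest gap of them at 7.71 ± 2.87 against 19.2 ± 6.44 CPM, and Kcna2, at 292 ± 31.6 and 277 ± 15.0 CPM, was not called. Kcnc2, a Kv3 pore known from fast-spiking neurons, was at 4.49, 4.33, 3.77 and 3.12 CPM in IA and 0.566, 0.464, 0.663 and 0.783 in IB (log2 2.71 ± 0.33), whereas its relative Kcnc1, at 396 ± 43.5 and 420.0 ± 14.5 CPM, was not called with all mice (log2 -0.08 ± 0.04) and was called higher in IB without mouse 4 (-0.13 with adjusted p = 0.0089).

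Channels opened by calcium, sodium or slow depolarisation were called 4 higher in IA and 5 higher in IB of 14, 5 in all with DESeq2. Lrrc52 and Kcnmb2, auxiliary subunits of large-conductance channels, were higher in IB, at 2.32 ± 0.784 against 12.6 ± 1.63 and 8.31 ± 2.68 against 31.4 ± 2.28 CPM. Of the inward rectifier and tandem-pore genes, 0 of 11 were higher in IA and 6 were higher in IB, 3 without mouse 3 and 3 with DESeq2. Kcnj9, which joins Kcnj6 in G-protein-gated channels, averaged 0.950 ± 0.342 against 5.36 ± 1.48 CPM, and the leak channel Kcnk10 1.25 ± 0.216 against 3.84 ± 0.0608.

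Of 11 sodium channel genes and partners, 4 were higher in IA and 2 in IB, none of them a voltage-gated pore. The pores Scn1a (log2 -0.02 ± 0.04), Scn8a (0.03 ± 0.04), Scn2a1 (0.05 ± 0.09) and Scn3a (-0.38 ± 0.17) were not called. The beta subunit gene Scn2b was lower in IA, at 8.68, 5.61, 9.17 and 6.25 against 22.3, 18.9, 30.0 and 30.8 CPM, and Scn4b was higher in IA by a small step (log2 0.26 ± 0.04). Nalcn, the sodium leak channel that sets resting excitability, was 4.44-fold higher in IB, at 3.26 ± 0.844 against 15.0 ± 2.08 CPM. The pacemaker channel gene Hcn2 was not called, at log2 -0.08 ± 0.04, but was without mouse 2 (-0.13 with adjusted p = 0.04). The acid-sensing channel gene Asic3, an abundant one, was higher in IA, at 793, 923, 863 and 864 against 537, 617, 551 and 546 CPM, with no overlap.

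For transmission, the subtypes differed in one vesicular glutamate transporter far more than in the other. Slc17a6 differed by log2 -2.98 ± 0.06, and Slc17a7, the main transporter of these neurons, by 0.12 ± 0.04. Slc17a7 stood at 504, 428, 473 and 464 CPM in IA and 477, 403, 457 and 397 in IB, overlapping, and its call was lost without mouse 1 (0.13 with adjusted p = 0.067) or mouse 4 (0.08 with adjusted p = 0.12). Of 43 genes of synaptic vesicles and release, 3 were higher in IA and 16 higher in IB, or 11 in all with DESeq2. Sv2c, a vesicle glycoprotein, was at 105 ± 9.69 against 167 ± 13.5 CPM (log2 -0.66 ± 0.04), and Snap25, a membrane SNARE, at 4183, 3936, 4198 and 4170 against 4740, 4460, 4744 and 4681. The Snap25 gap was narrow but free of overlap. Peptide and granin genes were called 0 higher in IA and 6 higher in IB of 11. They included the granin Chgb (513 ± 13.3 against 825 ± 52.8 CPM) and the prohormone convertase Pcsk2 (13.8 ± 3.22 against 40.7 ± 1.76).

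Of 12 ionotropic glutamate receptor genes and partners, 1 was higher in IA and 3 were higher in IB, 2 in all with DESeq2. The AMPA receptor subunits Gria2, Gria3 and Gria4 were not called, at log2 -0.11 ± 0.04, 0.09 ± 0.05 and 0.04 ± 0.06, and Gria3 was called higher in IA without mouse 2 (0.16 with adjusted p = 0.019). Grik4, a kainate receptor subunit, was higher in IB at 14.9 ± 0.410 against 26.9 ± 0.897 CPM, as was Grid1 (log2 -1.20 ± 0.26). Of 9 cholinergic receptor genes and Ly6 modulators, 2 were higher in IA and 4 in IB, and with rebuilt labels 3 were called in all. Ly6 proteins tune nicotinic receptors, and 3 of them were higher in IB: Lypd6 at 4.49, 3.54, 2.64 and 3.33 against 17.7, 17.3, 23.2 and 23.8 CPM, Lypd1 at 116, 98.3, 138 and 86.2 against 207, 238, 204 and 152, and Lypd6b (log2 -0.55 ± 0.07). Chrna1, a nicotinic subunit best known from muscle, was higher in IA, at 2.20 ± 0.551 against 0.414 ± 0.229 CPM. Adora1, an adenosine receptor, was higher in IB (log2 -1.52 ± 0.24).

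Guidance genes were called mostly higher in IB. Of 18 netrin, slit and repulsive guidance genes, 0 were higher in IA and 7 higher in IB, 4 with DESeq2, at a median of -0.32. The slit receptors Robo1 and Robo2 were at 16.9 ± 3.18 against 27.1 ± 5.24 and 2.12 ± 0.554 against 6.87 ± 1.94 CPM. Of 26 semaphorin, neuropilin and plexin genes, 2 were higher in IA and 7 in IB. Sema3a, a secreted repellent, was at 1.88, 1.38, 2.26 and 1.67 CPM in IA and 11.5, 10.8, 10.9 and 14.4 in IB (log2 -2.68 ± 0.19), and Sema3e and Sema4d were also higher in IB (-0.78 ± 0.04 and -1.93 ± 0.20). Nrp1, a co-receptor of secreted semaphorins, was higher in IA (0.65 ± 0.11). Of 14 Eph and ephrin genes, 2 were higher in IA and 5 in IB, against 1 called in all with DESeq2. Epha4 was higher in IA by log2 0.32 ± 0.05 and Epha7 higher in IB by -0.38 ± 0.08.

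Synaptic adhesion genes were called often. Of 29 neurexin, neuroligin, netrin-G and teneurin genes, 5 were higher in IA and 13 higher in IB, 11 in all with DESeq2. Beside Ntng1 and Tenm2, Nlgn1, a neuroligin, was higher in IB at 4.56 ± 0.520 against 9.66 ± 0.549 CPM. Ptprd, a receptor phosphatase of presynaptic contacts, and Lrrtm1 were higher in IA (log2 1.01 ± 0.17 and 0.86 ± 0.17). Of 22 cadherins and protocadherins, 3 were higher in IA, led by Pcdh20 and Cdh9 (0.65 ± 0.07), and 5 higher in IB. These 8 calls fell to 5 without mouse 4 and to 4 with DESeq2. Hmcn1, an extracellular hemicentin, was higher in IB at 2.19 ± 0.866 against 10.9 ± 1.69 CPM. Nrcam, which anchors nodal proteins of myelinated axons, was higher in IA (0.65 ± 0.10), and Lgi1, a secreted partner of node and synapse proteins, higher in IB (-1.14 ± 0.07).

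Transcription factors of sensory and inner ear neurons were called 12 higher in IA and 17 higher in IB of 60, 17 in all with DESeq2. Runx1, a runt-domain factor that sorts sensory neuron classes, stood at 11.7, 12.4, 12.9 and 12.3 CPM in IA and 80.6, 74.2, 76.6 and 94.0 in IB (6.38-fold, edgeR adjusted p = 3.8e-40). Pou4f1, a POU factor of sensory neurons, stood at 8.54, 7.68, 8.42 and 7.50 against 31.5, 29.8, 32.8 and 28.7 CPM. The groups of both were far apart. Bcl11a was also higher in IB (log2 -0.81 ± 0.08), while Ebf1, Zfhx3 and Sox11 were higher in IA (0.68 ± 0.04, 0.65 ± 0.05 and 0.64 ± 0.06). Isl1, shared by all these neurons, was at 332 ± 4.44 and 344 ± 10.4 CPM and not called. Among nuclear receptors, Rxrg, a retinoid X receptor, was higher in IA at 60.0, 49.0, 61.4 and 48.7 against 14.7, 14.8, 13.6 and 13.1 CPM. Rara and Thrb, receptors for retinoic acid and thyroid hormone, were higher in IB (-0.95 ± 0.12 and -0.81 ± 0.14). RNA-binding regulators gave 3 and 6 calls of 29, 5 in all with DESeq2. Rbfox3, whose protein is the neuronal marker NeuN, followed Khdrbs2 on the IB side at 23.4 ± 7.25 against 66.3 ± 6.69 CPM, and Celf3 was higher in IA (log2 1.79 ± 0.36).

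Of 33 neurofilament, tubulin and axonal cytoskeleton genes, 12 were higher in IA and 10 in IB. The neurofilament genes Nefl and Nefm, which set axon calibre, were higher in IA. Nefl stood at 2540, 2599, 2465 and 2316 CPM in IA and 1937, 1837, 1881 and 1822 in IB, and Nefm at 1554, 1444, 1401 and 1351 and 1069, 961, 1026 and 932, neither with overlap. The growth-associated genes Gap43 and Basp1 were higher in IB (log2 -1.95 ± 0.25 and -0.80 ± 0.05), as was the tubulin gene Tubb2a (-0.36 ± 0.04). Genes of sarcomere proteins were called 6 higher in IA and 4 higher in IB of 19. With Ttn on the IB side stood Casq1, a calcium-binding protein of muscle calcium stores (-2.05 ± 0.19), while Myl1, a myosin light chain (2.12 ± 0.11), and Actn2, which crosslinks actin (1.07 ± 0.23), were higher in IA.

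Called members of the G-protein, kinase and glycan lists were mostly higher in IB. Of 23 RGS and small G-protein regulators, 3 were higher in IA and 10 higher in IB, among them Rem2 (-2.75 ± 0.38), Rasd2 (-2.68 ± 0.31) and Rgs10 (-1.02 ± 0.09). Of 32 kinase A and C subunits and anchors the counts were 2 and 9, or 6 in all with DESeq2, with the regulatory subunit Prkar2b higher in IB at 16.1 ± 1.41 against 32.7 ± 2.59 CPM. Of 32 glycan-modifying enzymes, B3gat1 was 1 of 2 higher in IA against 11 higher in IB (8 in all with DESeq2), led by Mgat4c and Galnt14 (-2.31 ± 0.14). Neurotrophic signalling genes gave 4 of 19 higher in IA, among them the cytokine receptor Lifr (0.77 ± 0.05) and the neurotrophin receptor Ngfr (0.34 ± 0.04), and 1 higher in IB. The called share of this list, 26.3%, was near the 22.1% of all genes, so no direction is read from it. Ntrk3, the receptor for neurotrophin-3, was not called (log2 -0.01 ± 0.04).

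Among the transcripts with the largest change in amount, Spp1, which encodes osteopontin, and Fth1, the ferritin heavy chain, were higher in IA. Spp1 stood at 7157, 5838, 7294 and 6339 CPM against 5800, 4998, 5800 and 5421, and Fth1 at 10991, 10996, 10388 and 9894 against 9262, 9629, 9358 and 8598. Lgals1, a galectin known from sensory axons, was higher in IB at 327, 488, 315 and 294 against 647, 825, 674 and 599.9, and Ostf1 at 203, 197, 217 and 179 against 495, 483, 517 and 448. Ywhah, a scaffold that binds phosphorylated proteins, differed by -0.47 ± 0.04. The groups of Fth1, Lgals1, Ostf1 and Ywhah did not overlap, and the lowest IA value of Spp1 lay just above the highest of IB. Among abundant genes with narrow gaps, the calls of Fth1, Snap25, Pvalb, Cox4i1, Rps6 and mt-Co3 were lost without the mouse term, as was that of Nrp1. DESeq2 did not call Epha7, Kcnip4, Slc17a7, Grm8, Hba-a1 or Hbb-bs, and Actn2, Slc8a3 and Epha7 were not called in thinned cells, nor Actn2 and Nrp1 with rebuilt labels.

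Energy and translation genes differed by small steps. Of 13 mitochondrially encoded genes, 12 were higher in IA and 0 higher in IB, with a median of 0.18. The gene mt-Nd1, a subunit of complex I, stood at 12912, 11117, 12583 and 13106 CPM in IA and 10618, 9655, 10181 and 10028 in IB, and mt-Co3, of complex IV, at 27360, 26701, 28525 and 32501 and 24628, 24030, 25208 and 26460. In cells at or above the median depth of their mouse the median was 0.10 and 7 of 13 were called, and without the mouse term 1 was. Nuclear genes of oxidative phosphorylation gave 1 higher in IA and 25 higher in IB of 76, at a median of -0.05, with Ndufa4 at -0.24 ± 0.04 and Cox4i1 at -0.15 ± 0.04. Cytosolic ribosomal protein genes gave 0 and 35 of 63, at a median of -0.11, with Rps6 at -0.23 ± 0.04 and Rpl21 at -0.25 ± 0.04. Ribosomal protein genes have near-identical copies between which reads can be split, so their counts are uncertain. Both counts depended on single libraries and on the mouse term. Without mouse 1 the nuclear and ribosomal calls fell to 9 and 13, and without mouse 3 to 12 and 15. Without the mouse term they were 2 and 1, and with DESeq2 16 and 26. The shallower cells and the higher mitochondrial share of IA, and its lower glial sum, moved with these groups, and their part was not tested. Genes induced by dissociation and activity gave 1 higher in IA and 7 higher in IB of 31, and 4 in all without mouse 1 or without mouse 3, and 5 with DESeq2. Fos, at 538 ± 44.5 against 587 ± 41.2 CPM, was called with all 4 mice and not without mouse 1 or mouse 3.

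**Figure D3:**
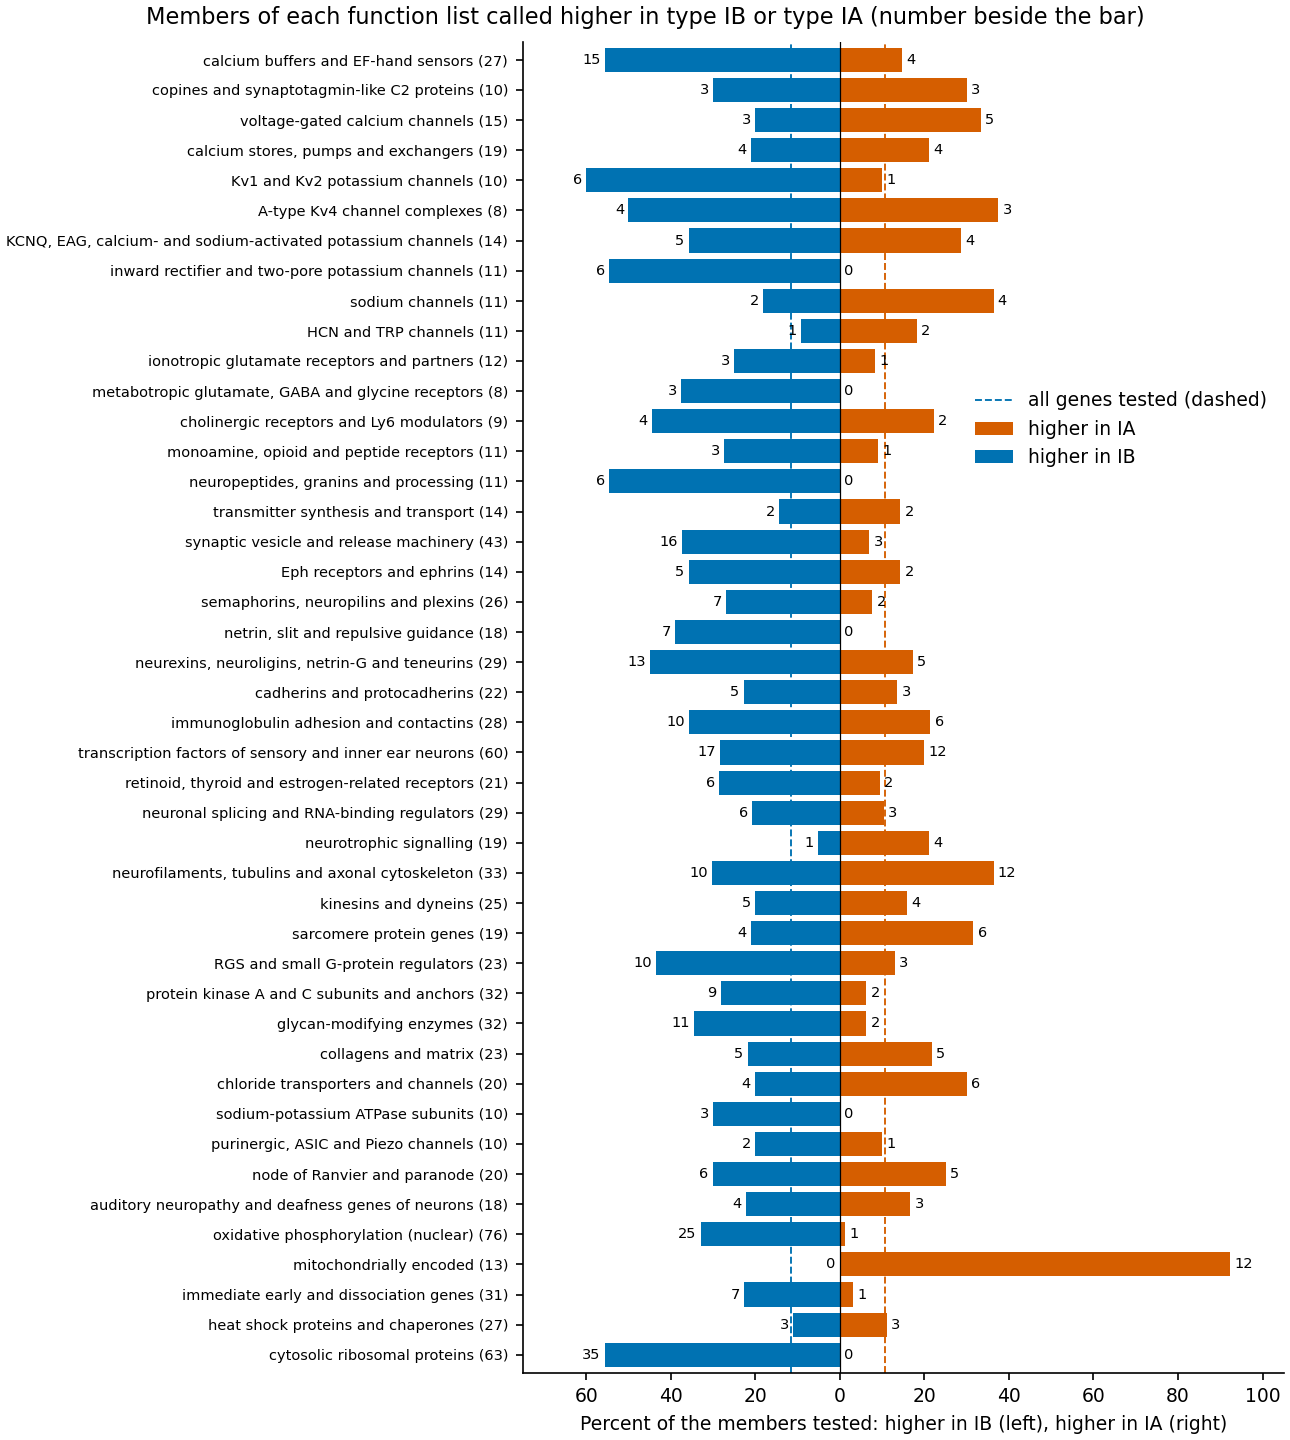
Percent of the tested members of each function list (number tested in brackets) called higher in type IB (blue, left) or in type IA (orange, right), for lists with at least 8 members tested. The dashed lines mark the 11.5% and 10.6% of all genes tested that were called in each direction, and the mitochondrially encoded genes (12 of 13 on the IA side) and ribosomal proteins (35 of 63 on the IB side) lie wholly on one side.

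Type IC gave a side value for each called gene. Its mean level lay beyond type IB, on the far side from IA, in 1705 of the 2822 called genes. It lay between both in 972 and beyond IA in 145. These places compare means alone, with no margin and no test, so a slight difference counts. They were not counted over the genes not called. Among the 299 genes of at least 2-fold the counts were 187, 104 and 8. Genes placed beyond IB included Ntng1 (307 CPM in IC), Slc17a6 (207), Pou4f1 (167) and Lypd1 (2953) on the rising side, and B3gat1 (12.7), Rxrg (4.59) and Calb2 (719) on the falling side. Calb1 (9.07), Ttn (5.10) and Lrrc52 (2.33) lay between, close to IA, and so were high in IB alone. Kcnc2 (8.82), Sema3e (118) and Ebf1 (208) lay beyond IA. All 6 markers of type IC were called higher in IB than in IA (Pou4f1, Lypd1, Runx1, Grm8, Ntng1 and Edn2), summing to 131.2 to 186.1 CPM in IA and 550.0 to 587.9 in IB against a mean of 3560 in IC. The Grm8 call was lost without mouse 1.

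The gap was also read in single cells. Each cell was thinned to 4758 UMIs, which left out 273 shallower IA and 128 shallower IB cells. B3gat1 had a UMI in 67.8% ± 4.48 of IA cells, 13.8% ± 1.32 of IB cells and 6.33% ± 0.731 of IC cells. Ntng1 had one in 7.99% ± 0.809 of IA and 65.6% ± 1.39 of IB cells, and Slc17a6 in 7.33% ± 1.19 and 51.2% ± 2.65. Runx1 (5.31% ± 0.629 and 31.2% ± 4.51), Ttn (1.49% ± 0.434 and 28.0% ± 3.97) and Calb1 (2.58% ± 0.885 and 23.9% ± 3.96) were found in fewer IB cells. The IC share of Ttn was 2.26% ± 0.727 and that of Calb1 3.72% ± 0.752, near the IA shares. Hbb-bs, whose transcripts come from blood, gave 80.9% ± 16.9 and 83.0% ± 14.5. The differences of B3gat1, Ntng1, Slc17a6, Runx1, Ttn and Calb1 had one sign in 4 of 4 mice, and the exact sign-flip permutation gives 0.125, the smallest it allows. Without thinning, at median depths of 12400.5 and 13334 UMIs over all IA and IB cells, the B3gat1 shares were 89.3% and 30.5% and the Ntng1 shares 19.6% and 88.8%.

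A Calb2 UMI was found in 99.9% of IA and of IB cells at equal depth, and also in 94.6% ± 2.94 of IC and 87.4% of type II cells, so a share of cells with a UMI does not separate expression from free RNA for this gene. At equal depth the median IA cell held 42 to 49 Calb2 UMIs over the 4 mice and the median IB cell 9 to 11. An IA cell exceeded an IB cell of its mouse in 97.3% of pairs on average, and 0.947% of IB cells reached the lower quartile of IA. Calb1 was at 0 UMIs in 76.1% of IB cells at that depth, a share that counts sampling as well as absence. When labels were rebuilt from one random part of each cell's UMIs, by a classifier trained on the other 3 mice, 98.4% ± 0.502 of IA and 96.0% ± 1.45 of IB cells received the authors' label. The classifier's probability lay between 0.2 and 0.8 for 9.07% ± 5.37 of IA and 22.1% ± 4.84 of IB cells (17.6% to 28.5% over the mice). The part of the UMIs that the rebuilt labels had not used gave 1922 called genes, 868 higher in IA, and of the 2731 genes called above that were tested in it, 1783 were called again in the same direction and 2730 had the same direction. Both parts of the UMIs come from the same cells, and nearly all labels were the same, so this is no independent check.

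**Figure D4:**
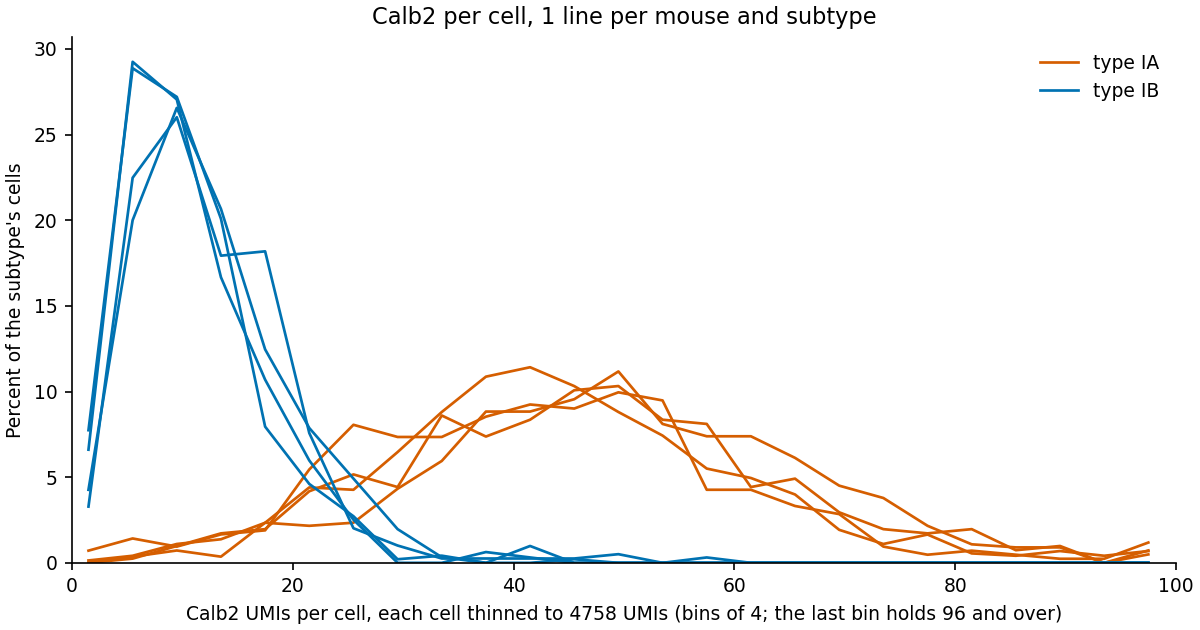
Distribution of Calb2 UMIs per cell (horizontal axis, each cell thinned to 4758 UMIs) as percent of the subtype's cells (vertical axis) for type IA (orange) and type IB (blue), with 1 line per mouse. IB cells peak below 12 UMIs and IA cells spread around 40 to 50, with little overlap in each of the 4 mice.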

How the data were processed

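RNA of cochlear neurons from 4 mice was captured as single cells with 10x 3′ chemistry, 1 library per mouse. Raw UMI counts for each gene and cell make up the deposited tables. Cell Ranger 2.0.1, Seurat 1.4 and build mm10 are named in the submitters' processing notes, without their settings. Subtype labels come from the authors' deposited cell annotation, and cell filters or doublet removal were not given in the sources used. No doublet caller was run. A gene in these tables is a symbol, and strand use in the counting is not stated.

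The deposited counts were summed over cells per mouse and subtype, giving 8 sums, and the sums are the replicates. The 12757 genes that passed edgeR's filterByExpr were scaled by TMM and tested with edgeR 4.0.16 (glmQLFit and glmQLFTest, two-sided, R 4.3.3) with the mouse as a block. Genes at a Benjamini-Hochberg adjusted p under 0.05 over all genes tested were called. The mouse number is the animal, so the pairing is given by the design. Deviations from the subtype means correlated between IA and IB of the same mouse at 0.58, 0.55, 0.49 and 0.62 over 4884 genes, and at most at 0.01 between different mice. The fit was also run on simulated counts drawn without a mouse effect, so that run does not test the pairing.

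CPM values in the text are UMIs scaled to 1000000 per sum, and errors are SDs over 4 mice or, beside a log2 difference, the standard error of the fit. Cells were thinned to the depth at percentile 10 over type IA and type IB cells, 4758 UMIs, before shares of cells were compared. Labels were rebuilt from a random 50% of each cell's UMIs with a classifier in Python 3.11.15, and the other UMIs were tested. The place of type IC was read on log2(CPM + 0.5). Alternatives were DESeq2 1.42.0, limma-voom (limma 3.58.1), DESeq2's size factors, no filter on low counts, no mouse term, each mouse left out, type IC sums in the fit, equal numbers of cells, thinned cells, the deeper cells alone, no mitochondrial genes, and rebuilt labels.

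The subtypes compared and the 45 function lists were chosen with earlier results of these data known. Genes named in the text were the 12 widest differences on each side with at least 20 UMIs in the higher subtype and 1 direction in 4 mice, unnamed gene models left out, the 10 largest differences in CPM on each side, up to 6 called members of each list with the widest differences and up to 2 uncalled members with the highest CPM, any member of lists of 12 or fewer, and the cell type markers. Some genes that this rule names are not reported here. A p-value here sets the paired difference against its spread over 4 mice of 1 strain and sex. Each gene has 3 residual degrees of freedom of its own. The fit adds a median of 60.6 drawn from all genes, so its p-values rest largely on pooled spread.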

Additional observations from a re-analysis of the deposited data

Results flagged for a closer look

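Groups of 4 values were examined for the genes named, Gata3 left out. Of 286 groups, 15 held 1 mouse whose gap to the others was above the 95% critical value of Dixon's test. Chance gives about 1 in 20. Mouse 2 stood apart in 9 of them. In type IB its CPM was 617.3 for Asic3 (others 537.5 to 550.7), 746.5 for Chgb (844.4 to 860.4), 100.1 for Cpne6 (69.96 to 72.5), 61.96 for Gria4 (67.02 to 67.8), 398.4 for Kcnc1 (425.2 to 429.3) and 21.17 for Khdrbs2 (18.12 to 18.53). In type IA it was 487.8 for Lgals1 (293.6 to 326.6), 500.9 for Rpl21 (435.4 to 443.7) and 3936 for Snap25 (4170 to 4198).

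Mouse 4 stood apart in type IA, with 26.86 CPM for Mcu (others 20.18 to 20.73), 160.5 for Scn1a (137.2 to 140.3) and 105.3 for Tubb2a (151.3 to 154.4). Mouse 3 had 4.523 CPM for Nalcn (2.749 to 2.915) in type IA, and 89.18 for Ebf1 (112.0 to 113.8) in type IB. Mouse 1 had 0.7552 CPM for Chrna1 (0.261 to 0.3315) in type IB. Calls of Asic3, Chgb, Chrna1, Cpne6, Ebf1, Khdrbs2, Lgals1, Mcu, Nalcn, Rpl21, Snap25 and Tubb2a were kept without each mouse in turn.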

How the results depend on the processing

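The count of genes called fell most with DESeq2, without the mouse term and in thinned cells. It changed little with another scaling or with limma-voom. With DESeq2 on the same sums 1187 genes were called, 516 higher in IA and 671 higher in IB, with 293 list genes against 440 and 5 markers of other cells against 8. All 1187 were also called by edgeR in the same direction. Without the replicate block, in which the mouse is not paired, 1266 genes were called, 626 higher in IA and 640 higher in IB, with 225 list genes and 3 markers of other cells, and all 1266 were called with the pairing too. Among the 140 genes named, Gata3 left out, the call was lost for 15 without the pairing, Pvalb, Fth1 and Snap25 among them. Cells thinned to one depth gave 1466 genes, 651 higher in IA and 815 higher in IB, of which 197 were at least 2-fold, from fewer UMIs and 10819 genes tested. Rebuilt labels, with about 50% of the UMIs tested, gave 868 genes higher in IA. Equal numbers of cells in every sum gave 5 markers of other cells. The cause of the other changes was not tested. Leaving out each mouse gave 2015 to 2560 called genes and 285 to 297 of at least 2-fold. Another scaling gave 2802, limma-voom 2786, no filter 2776, type IC in the fit 2872, equal cell numbers 2240, the deeper cells 2270 and no mitochondrial genes 2794. The share of calls higher in IA lay between 43.47% and 49.82% in these settings. None of the 140 genes reversed. At least 5 points parted 12 of 18 subtype markers in thinned cells and 15 in all UMIs.

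Both subtypes of a mouse share a library and free RNA, and 4 mice allow no permutation p under 0.125. Genes with few UMIs, such as Shank2, Megf11, Myoz1, Edn2 and Kcnj6, rest on 10 or fewer UMIs in the lower subtype. List medians near 0 (copines, calcium stores, sodium channels, cadherins, splicing, neurotrophic, cytoskeletal and sarcomere genes) changed sign in at least 1 setting, so that only their calls are described.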
